A study of Mus musculus with 24 samples.

Results

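Metallothioneins are small, cysteine-rich proteins that bind zinc and copper inside the cell, and the liver is their main site of induction. Zinc enters the cytosol through ZIP (Slc39a) carriers and leaves it through ZnT (Slc30a) carriers, and free zinc in excess switches on the transcription factor MTF1, which binds short metal response elements in the promoters of metallothionein genes and of the exporter gene Slc30a1. Hepatic metallothionein RNA is also known to respond to glucocorticoids, to interleukin-6 and to food deprivation. The 7 genes described here are Mt1 and Mt2, the importer genes Slc39a14 and Slc39a4, the exporter genes Slc30a1 and Slc30a10, and Mtf1. They were taken as the spots that carry these gene names and are no controls, among 37008 genes on the array, with 1 probe per gene, the probe with the highest mean Cy5 signal over 24 arrays. All 7 passed the filter on dim signals, as 18633 genes did, and each was well above background and unsaturated in Cy5 on all 24 arrays.

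The study compared livers of young mice fed galactose in place of part of the dietary glucose. C57BL/6JRcc mice labelled female were housed singly and ate a semi-synthetic diet for 3 weeks from 3 weeks of age, in which monosaccharides gave 32% of energy. In the GLU+GAL group (12 mice) these were glucose and galactose in equal shares, and in the GLU group (12 mice) glucose alone. Both diets drew 16% of energy from fat, 20% from protein and 32% from starch, and all mice were killed at postnatal day 42, in the light phase and without food. Cy5-labelled RNA from the right liver lobe of each mouse was hybridised against a Cy3 pool of all mice, so each value below is a log2 ratio of 1 mouse over the pool. The 24 arrays lay on 3 slides, each with 4 arrays per diet.

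In Cy5, the share of an array's spots well above background was 46.6% to 51.3%. Hepatocyte markers were measured (7 of 8, with Alb, Ttr and Apoa1 among them), whereas 6 of 7 kidney and adrenal markers, 5 of 7 intestinal markers and 4 of 8 pancreatic acinar markers did not pass the filter. The arrays GLU+GAL 4 and GLU+GAL 12 stood apart. The pool channel of GLU+GAL 4 correlated with that of other arrays at a median of 0.9918, where all others reached 0.9968 or more, and on GLU+GAL 12 the Y-linked Ddx3y and Eif2s3y were well above background while Xist was not, against the label. In bulk liver RNA, fewer cells of a type and less RNA per cell cannot be told apart.

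The promoters of Mt1, Mt2 and Slc30a1 are shown because these 3 genes varied together across mice, as described below. The windows run from 250 bases before to 50 bases after the start site in RefSeq's annotation of GRCm38.p6, all on the plus strand. Capitals mark the core of the metal response element, TGCACNC or TGCGCNC, searched on both strands.
Mt1, chr8:94178839-94179138: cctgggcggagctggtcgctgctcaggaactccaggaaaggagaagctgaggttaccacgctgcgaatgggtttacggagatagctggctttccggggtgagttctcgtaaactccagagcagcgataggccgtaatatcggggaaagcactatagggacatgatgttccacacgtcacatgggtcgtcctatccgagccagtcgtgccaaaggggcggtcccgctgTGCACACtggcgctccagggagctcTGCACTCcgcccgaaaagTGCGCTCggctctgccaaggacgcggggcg
Mt2, chr8:94172368-94172667: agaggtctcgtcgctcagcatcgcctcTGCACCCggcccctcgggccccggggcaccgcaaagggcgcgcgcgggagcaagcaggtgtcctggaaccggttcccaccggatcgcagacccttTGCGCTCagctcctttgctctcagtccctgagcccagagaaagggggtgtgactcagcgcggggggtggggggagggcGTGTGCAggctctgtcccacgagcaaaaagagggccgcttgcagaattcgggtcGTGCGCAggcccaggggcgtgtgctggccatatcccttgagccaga
Slc30a1, chr1:191906531-191906830: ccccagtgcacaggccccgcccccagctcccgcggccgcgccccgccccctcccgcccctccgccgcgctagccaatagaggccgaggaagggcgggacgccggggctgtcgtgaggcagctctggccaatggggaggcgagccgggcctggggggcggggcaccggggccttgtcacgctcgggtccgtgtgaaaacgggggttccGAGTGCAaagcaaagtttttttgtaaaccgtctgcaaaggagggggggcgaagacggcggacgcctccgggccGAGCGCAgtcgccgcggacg
The Mt1 window held 3 cores, the Mt2 window 4 and the Slc30a1 window 2. The Slc30a10 window held 3 (2 of them overlapping on opposite strands) and the Mtf1 window 0. Slc30a10 ran against Mt1 and Mt2 across mice (r = -0.53 and -0.48), and a link of cores to covariation was not tested. Of 32851 promoter windows of the same length, 25.7% held at least 1 core, 7.11% at least 2, 1.97% at least 3 and 0.517% at least 4. A match is a description of these letters and not a bound site, and 5 of the 7 genes had a window in the table.

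Mt1 and Mt2 were among the most variable transcripts of these livers, and the spread lay within both diets. Over 24 mice the SD of the Mt2 log2 ratio was 1.37, the 6th highest of 18633 genes, and that of Mt1 was 0.91, the 43rd highest, where the median gene had an SD of 0.169. Mt1 values in GLU+GAL livers were -2.13 at the lowest (mouse GLU+GAL 1), -0.12 at the median and 1.37 at the highest (GLU+GAL 8), against -1.24 (GLU 1), 0.04 and 1.88 (GLU 12) in GLU livers. Mt2 values were -3.57, -0.55 and 1.38 in the same GLU+GAL mice, against -2.11, -0.34 and 2.01 in the same GLU mice. The ranges of the diets overlapped over most of their length, and the lowest mouse of both genes was fed GLU+GAL and the highest GLU. The distance between those mice was 16.1-fold for Mt1 and 48.1-fold for Mt2. The array spot of Mt2 on GLU+GAL 11 was an outlier in the scanner's own call and was left out, so Mt2 had 11 mice in that group.

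The transporter genes and Mtf1 varied far less. Slc30a10, a manganese exporter of the ZnT family, had an SD of 0.30 over 24 mice and lay at the 92.4th percentile of all tested genes. Slc30a1, the zinc exporter of the plasma membrane, had an SD of 0.24 (83.0th percentile), and Slc39a14, an importer of zinc, iron and manganese, 0.23 (80.4th percentile). Slc39a4, best known as the intestinal zinc importer, had an SD of 0.17 (50.9th percentile), and Mtf1 an SD of 0.14 (28.8th percentile). The fold distance between the lowest and the highest mouse was 2.31 for Slc30a10, 1.88 for Slc30a1, 1.74 for Slc39a14, 1.63 for Slc39a4 and 1.41 for Mtf1. These percentiles are descriptions and were not tested.

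**Figure D1:**
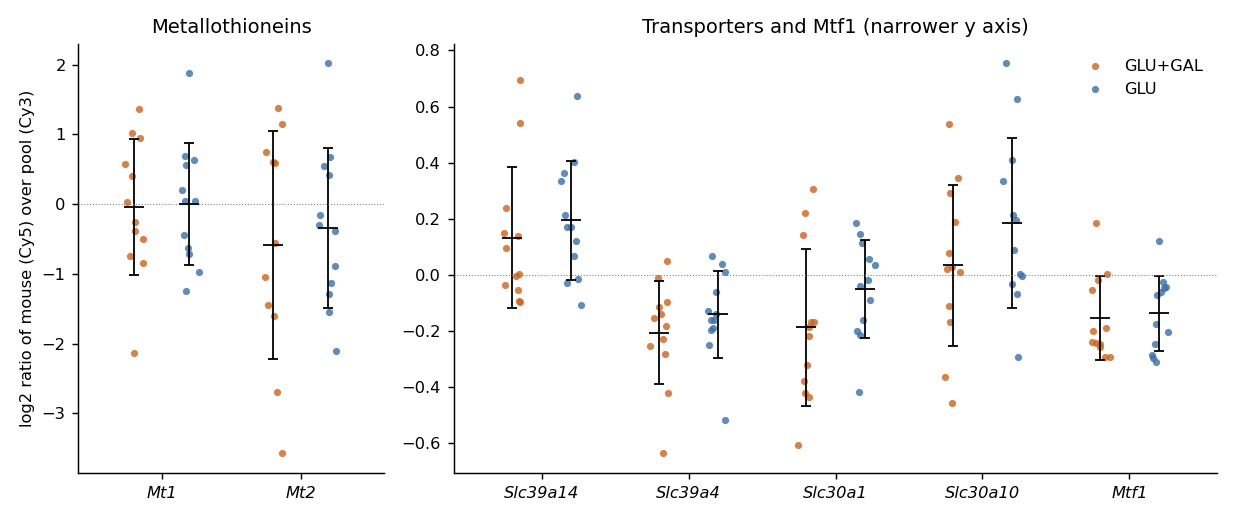
Log2 ratio of each mouse over the pool (y axis) for the 7 genes, GLU+GAL mice left of GLU mice, with bars at the mean and 1 SD. Mt1 and Mt2 spread over several log2 units in both diets, the other 5 genes over 1.21 log2 units or less, and the diets overlap for every gene.

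None of the 7 genes passed the test between the diets. No gene of the 18633 passed an adjusted p of 0.05 (0%; lowest adjusted p 0.522, limma with Benjamini-Hochberg adjustment). An unadjusted p under 0.05 was reached by 802 genes (4.3%), 307 of them higher in GLU+GAL livers (1.65%) and 495 lower (2.66%), and 0 of the 7 genes were among them. All 7 means were lower in GLU+GAL than in GLU livers, as were those of 49.2% of all tested genes, and each interval held 0.

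Mt1 averaged -0.04 ± 0.98 in GLU+GAL livers and 0.00 ± 0.87 in GLU livers (SD, n = 12 each), a log2 difference of -0.05 with a 95% interval of -0.75 to 0.66. Mt2 averaged -0.59 ± 1.64 in GLU+GAL livers (SD, n = 11) and -0.35 ± 1.14 in GLU livers (SD, n = 12), a difference of -0.24 with an interval of -1.33 to 0.85. For Mt2 the interval therefore runs from 0.398 to 1.80 times the GLU level, and for Mt1 from 0.594 to 1.58 times. The difference of each gene was smaller than the SD among mice of either diet.

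Among the importers, Slc39a14 values in GLU+GAL livers ran from -0.09 over a median of 0.05 to 0.69, against -0.11, 0.17 and 0.64 in GLU livers. The mean difference was -0.06 ± 0.09 (SE). Slc39a4 ran from -0.64 over -0.17 to 0.05 in GLU+GAL livers, against -0.52, -0.15 and 0.07 in GLU livers. Its mean difference was -0.07 ± 0.07 (SE). Both genes spanned nearly the same range in both diets.

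Among the exporters, Slc30a1 ran from -0.60 (GLU+GAL 10) over -0.20 to 0.30 (GLU+GAL 7) in GLU+GAL livers, against -0.42 (GLU 1), -0.03 and 0.19 (GLU 2) in GLU livers. The difference was -0.14 ± 0.09 (SE, unadjusted p = 0.145 in limma), with 9 of 12 GLU+GAL values under the mean of GLU livers. Slc30a10 ran from -0.46 over 0.03 to 0.54 in GLU+GAL livers, against -0.29, 0.14 and 0.75 in GLU livers. The difference was -0.15 ± 0.11 (SE, unadjusted p = 0.190 in limma), with 8 of 12 GLU+GAL values under that mean. Mtf1, the zinc-sensing factor, ran from -0.29 over -0.22 to 0.19 in GLU+GAL livers, against -0.31, -0.12 and 0.12 in GLU livers. Its difference was -0.02 ± 0.06 (SE), and its interval of -0.14 to 0.11 was the narrowest of the 7.

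The diet difference of the metallothioneins took opposite signs on different slides. Mt1 differed by -0.34 on slide 1, by -0.67 on slide 2 and by 0.87 on slide 3, and Mt2 by -0.48, -1.33 and 1.18. On slide 3 alone both had an unadjusted p under 0.05 in limma (0.0381 for Mt1 and 0.0453 for Mt2, adjusted p = 0.960 for both), and on slide 2 alone Slc30a1 did (a difference of -0.38, p = 0.0173, adjusted p = 0.455). The difference between slides was not tested. Slc30a10 was lower in GLU+GAL livers on all 3 slides, at -0.08, -0.20 and -0.17. Leaving out mouse GLU+GAL 1 turned the Mt1 and Mt2 differences to 0.14 and 0.06 (the sign of Mt1 turned for 7 of 24 mice left out), and leaving out GLU+GAL 7 gave Slc30a1 a difference of -0.18 with an unadjusted p of 0.0424 in limma.

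**Figure D2:**
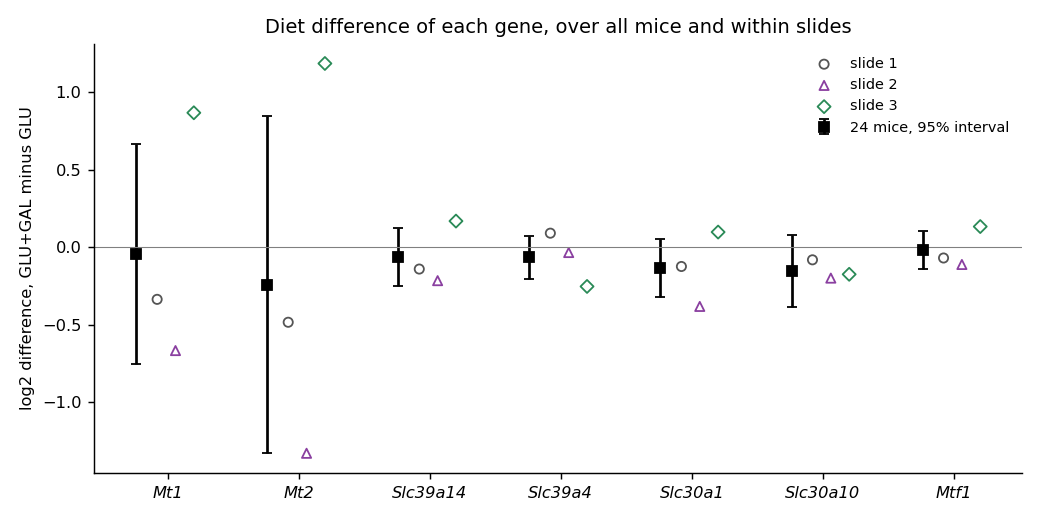
Log2 difference of GLU+GAL minus GLU (y axis) for each gene over 24 mice with its 95% interval (filled squares; 23 mice for Mt2), and the difference of means within each slide of 8 arrays (open symbols). Every interval crosses 0, and for Mt1 and Mt2 slide 3 lies above 0 while slides 1 and 2 lie below it.

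The wide spread of the metallothioneins lay mostly in the mouse channel, with a smaller, opposite movement in the pool channel. For Mt2 the Cy5 signal of the mice spanned 26.3-fold on the normalised intensity scale, with an SD of 1.18 in log2 units, and the Cy3 signal of the pool, the same RNA on every array, had an SD of 0.22. For Mt1 these SDs were 0.77 and 0.17. Over tested genes the median SD was 0.164 in Cy5 and 0.0926 in Cy3. The Cy3 SD was itself high among tested genes, at percentile 97.6 for Mt2 and 93.1 for Mt1. Pool signals of Mt1 and Mt2 ran opposite to the mouse signals on the same spots, with r = -0.80 for Mt1 (n = 24) and r = -0.88 for Mt2, and the log2 ratio thus spans more than Cy5 alone. The part of this pattern in the results was not tested. Correlations in Cy5 alone are given beside the pairs below that passed the test.

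**Figure D3:**
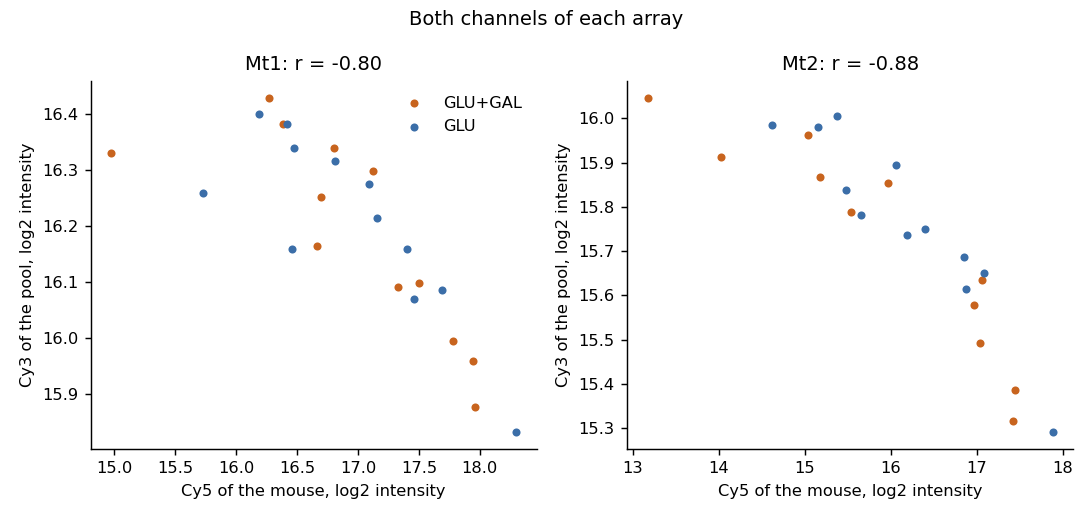
Normalised log2 intensity of the mouse in Cy5 (x axis) and of the pool in Cy3 (y axis) on each array, for Mt1 (left) and Mt2 (right), with GLU+GAL arrays in orange and GLU arrays in blue. Arrays with a high mouse signal had a lower pool signal, over an axis of 0.60 log2 units for Mt1 and 0.76 for Mt2 in Cy3, in both diets.

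Mt1 and Mt2, neighbours on chromosome 8, rose and fell together from mouse to mouse. Their log2 ratios correlated with r = 0.96 and Spearman's rho = 0.96 over 23 mice (2-sided permutation test with 100000 resamples, p = 1e-05, the smallest it can give, adjusted p = 0.000105 over 21 pairs). Without the 2 mice farthest from the median, r was 0.93. It was 0.99, 0.93 and 0.99 on slides 1, 2 and 3, 0.95 within GLU+GAL mice and 0.99 within GLU mice, and 0.94 in Cy5 alone. In Cy3, the same pool on every array, r was 0.93, over the narrower spread given above. With all probes of a gene averaged, r of the log2 ratios was 0.84. Mouse GLU+GAL 10 stood off the line, with Mt1 at -0.50 and Mt2 at -2.70. Without it, r was 0.99. Of tested genes, 0.0107% had as strong a correlation with Mt2, in either direction, and 0.0161% with Mt1. These shares count the other metallothionein itself and Pip5k1a, whose probe is described below as uncertain.

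Slc30a1, the other classical MTF1 target among the 7, followed the metallothioneins. With Mt2 its correlation was r = 0.69 and rho = 0.65 (permutation test, adjusted p = 0.00196 and 0.00604), and with Mt1 r = 0.59 and rho = 0.59 (adjusted p = 0.0123 and 0.0111). Without the 2 farthest mice the values were 0.71 and 0.59. Of all tested genes, 0.66% correlated as strongly with Mt2 as Slc30a1 did, and 0.0537% as strongly with Slc30a1 as Mt2 did. On slides 1, 2 and 3 the r with Mt2 was 0.32, 0.80 and 0.73, where 7 or 8 mice a slide left the adjusted p at 0.128 or above in exact permutation tests. Within diets it was 0.79 in GLU+GAL mice and 0.50 in GLU mice, a difference that was not tested. In Cy5 alone r was 0.69 with Mt2 and 0.60 with Mt1. The slope was shallow, since Mt2 spanned 5.59 log2 units over the mice and Slc30a1 0.91.

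Slc30a10 and Slc39a4 ran against the metallothioneins, less firmly. Slc30a10 correlated with Mt1 at r = -0.53 and rho = -0.64 (permutation test, adjusted p = 0.0323 and 0.00604) and with Mt2 at r = -0.48 and rho = -0.63 (adjusted p = 0.0469 and 0.00790). Its r with Mt1 was -0.81, -0.20 and -0.83 on slides 1, 2 and 3, and without the 2 farthest mice -0.61. Slc39a4 correlated with Mt1 at r = -0.51 (adjusted p = 0.0348) and with Mt2 at r = -0.50 (adjusted p = 0.0418), but neither passed by Spearman's rho (-0.42 and -0.50, adjusted p = 0.102 and 0.0522). The 4 pairs depended on the processing: with median centring in place of loess their r was from -0.24 to -0.35 (adjusted p from 0.145 to 0.280), and with scaling between arrays from -0.36 to -0.47 (adjusted p from 0.0690 to 0.169), so none passed. With values centred within slides, Slc30a10 passed with Mt1 (r = -0.64) and Mt2 (r = -0.62). Slc39a4 then passed with Mt1 (r = -0.47) but not with Mt2 (r = -0.41). In Cy5 alone Mt1 with Slc30a10 passed (r = -0.52, adjusted p = 0.0407). Mt2 with Slc30a10 (r = -0.48, adjusted p = 0.0653) and Slc39a4 with Mt1 (r = -0.35) and Mt2 (r = -0.37, adjusted p = 0.157 for both) did not pass in Cy5 alone. Correlations of these sizes are common on these arrays, since 3.65% of tested genes were correlated as strongly with Mt1 as Slc30a10 was, and 4.74% as Slc39a4 was. Without GLU 12, the mouse with the highest Mt1, all 4 of these pairs missed the threshold, with r from -0.39 to -0.47, and without GLU+GAL 4 and GLU+GAL 12 they did so with r from -0.44 to -0.50. The pair of Mt1 and Slc30a10 also missed it without GLU+GAL 3 (r = -0.49). Mt1 with Slc39a4 missed it when any 1 of 7 mice was left out (GLU 1, 11 and 12, GLU+GAL 3, 4, 7 and 10), Mt2 with Slc39a4 for these and GLU 8, and Mt2 with Slc30a10 for 16 of 24 mice.

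Slc39a14 and Mtf1 formed a second pair. Their correlation was r = 0.79 and rho = 0.64 (permutation test, adjusted p = 0.000105 and 0.00604, n = 24), with 0.84, 0.57 and 0.87 on slides 1, 2 and 3 and 0.82 in Cy5 alone. Mice GLU+GAL 7 and GLU 7 held the highest values of both genes, at 0.69 and 0.64 for Slc39a14 and 0.19 and 0.12 for Mtf1. Without the 2 mice farthest from the median, r was 0.63. Slc39a14 also correlated with Slc30a1 at r = 0.50 (adjusted p = 0.0348), but rho was 0.37 (adjusted p = 0.171), r fell to 0.32 without the 2 farthest mice, and without GLU+GAL 7 it was 0.39. In Cy5 alone it was 0.46 (adjusted p = 0.0653). The pair passed with median centring (r = 0.73) and with scaling between arrays (r = 0.58), but not with Agilent's processed signals (r = 0.46). The pair missed the threshold when any 1 of 7 mice was left out (GLU 7, 11 and 12, GLU+GAL 3, 7, 8 and 10).

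For Mtf1 RNA and the RNA of its classical targets no relation was detected, with r = 0.02 with Mt1, 0.05 with Mt2 and 0.35 with Slc30a1 (permutation test, adjusted p = 0.926, 0.863 and 0.186). In all, 9 of 21 pairs passed the adjusted threshold by Pearson's r, 6 of them by Spearman's rho as well. Without GLU+GAL 4 and GLU+GAL 12 the number by Pearson's r was 5, namely Mt1 with Mt2, both metallothioneins with Slc30a1, and Slc39a14 with Slc30a1 and with Mtf1. Both genes of a pair were read on the same array against the same pool.

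**Figure D4:**
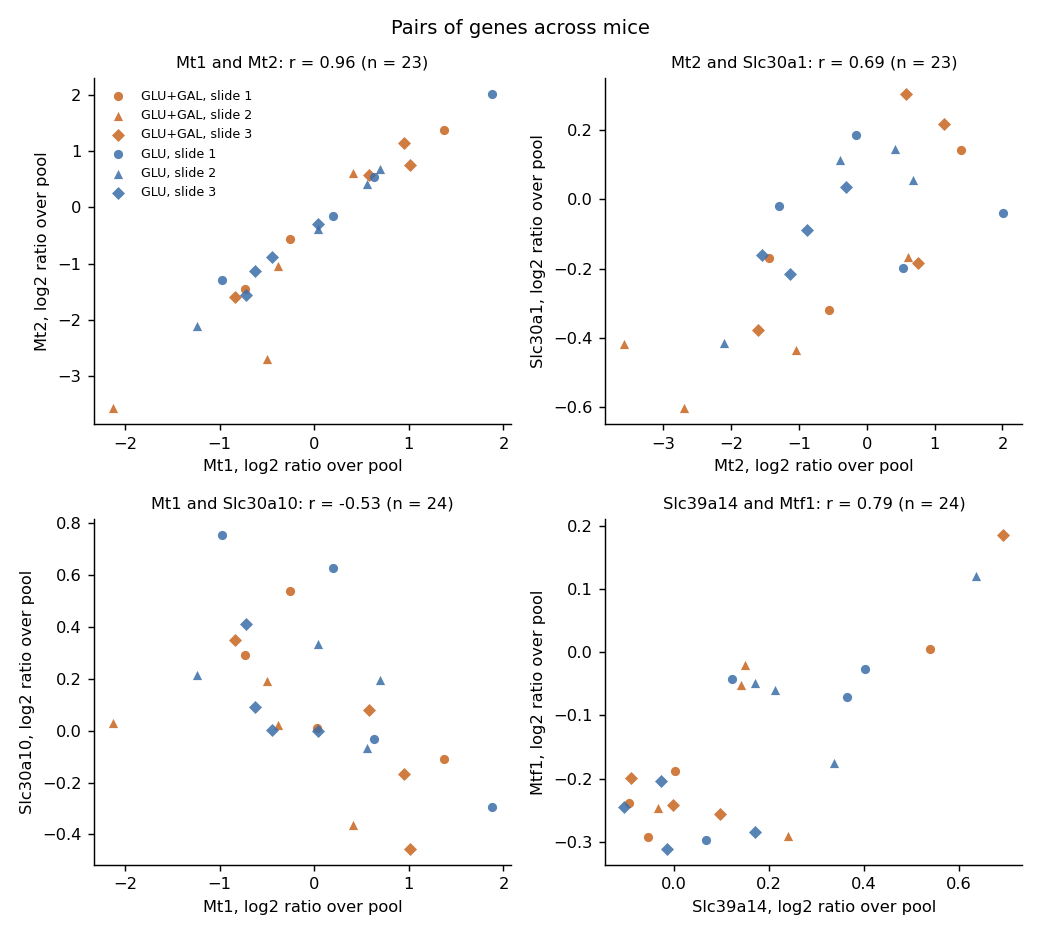
Each point is 1 mouse, with log2 ratios over the pool on both axes, coloured by diet and shaped by slide, for 4 pairs of genes. Mt1 and Mt2 lie close to a line apart from 1 GLU+GAL mouse, Slc30a1 is higher and Slc30a10 lower where metallothioneins are high, and 2 mice lead the pair of Slc39a14 and Mtf1.

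**Figure D5:**
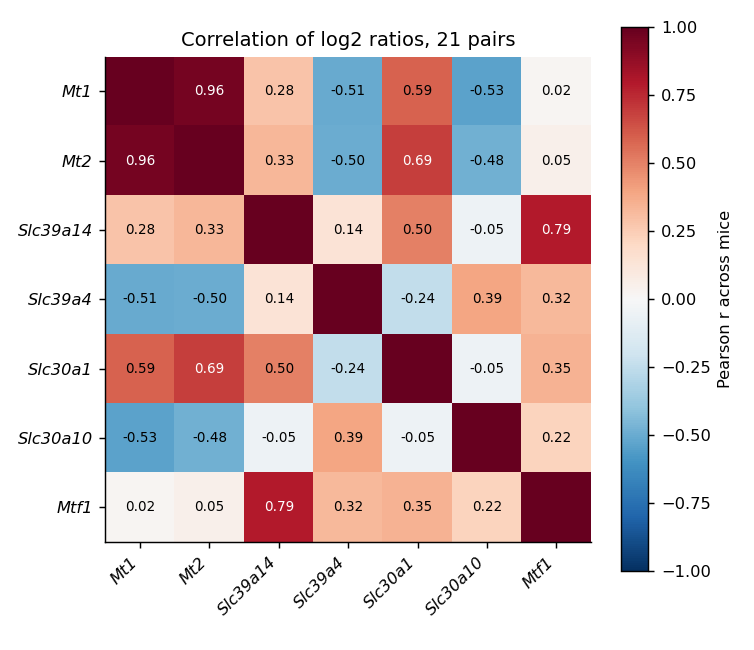
Pearson's r of log2 ratios across mice for the 21 pairs of the 7 genes, red above 0 and blue below it, with its value in each cell (n = 24, or 23 for pairs with Mt2). The metallothioneins and Slc30a1 are positive with each other and negative with Slc39a4 and Slc30a10 or near 0 (Slc30a1 with Slc30a10, -0.05), and Slc39a14 pairs with Mtf1 at 0.79.

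Gene lists of known inducers of metallothionein, and a list of Kupffer cell markers, were set against the 7 genes mouse by mouse. Of 35 correlations with the mean log2 ratio of these 5 lists, 0 passed the adjusted threshold and 8 had an unadjusted p under 0.05 (permutation tests). The acute phase and interleukin-6 list correlated with Mt1 at r = 0.37, with Mt2 at 0.46 and with Slc30a1 at 0.56 (permutation test, adjusted p = 0.279, 0.131 and 0.0658). For Mt2 the r with this list was 0.16, 0.78 and 0.06 on slides 1, 2 and 3. Glucocorticoid-responsive genes correlated with Mt1 at -0.31 and Mt2 at -0.29, fasting genes at -0.27 and -0.26, and NRF2 targets at 0.04 with both. The other 3 pairs at an adjusted p of 0.0658 were fasting genes with Mtf1 (r = 0.56) and with Slc39a4 (r = 0.53), and NRF2 targets with Slc39a14 (r = -0.53). The mean of the Kupffer cell markers, the liver's resident macrophages, correlated with Mt1 at -0.09 and with Mt2 at -0.07.

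No other gene of zinc handling passed the adjusted threshold between the diets, and calls at an unadjusted p under 0.05 stand beside a share of 4.3% over all tested genes. Of the ZIP genes, 13 of 14 were measured, with 0 at an unadjusted p under 0.05 and a median difference of -0.02, against 0.00 over all tested genes. The largest differences were those of Slc39a6, at -0.11 ± 0.08 (SE), Slc39a11, at 0.10 ± 0.05, and Slc39a10, at 0.07 ± 0.07. Of the ZnT genes, 8 of 10 were measured, with 0 at that level and a median of 0.04, and beyond Slc30a10 and Slc30a1 the largest was Slc30a5, at 0.08 ± 0.07. Among the metallothioneins Mt3, known from brain, was above background and differed by -0.02 ± 0.05, with an SD over mice of 0.12, and Mt4 did not pass the filter. Of 8 genes known as MTF1 targets in mice, Selenoh, a nuclear selenoprotein, was 0.16 ± 0.07 higher in GLU+GAL livers at an unadjusted p of 0.0288 in limma (adjusted p = 0.999), Ndrg1 differed by -0.20 ± 0.12, and the median was -0.09. The Selenoh call was lost without GLU 5, GLU 12, GLU+GAL 4 or GLU+GAL 5, on each slide alone and with array weights. Without both GLU+GAL 4 and GLU+GAL 12, Selenow, another selenoprotein gene, was called in its place, at -0.20 ± 0.08 (p = 0.0149, adjusted p = 0.999).

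The lists of known inducers and of cell type markers differed in how often their genes were called between the diets. These lists were chosen with earlier results of these data known, so the counts are descriptions and no test of a list. Of the acute phase list, 13 of 22 genes were lower in GLU+GAL livers at an unadjusted p under 0.05, beside 2.66% of all tested genes, and none was higher or passed the adjusted threshold. These were Saa1, Saa2, Saa3, Hpx, Fga, Fgb, Fgg, Steap4, Itih3, Itih4, Cp, Lbp and Apcs, the first 3, serum amyloid genes, at differences of -0.33, -0.39 and -0.54. Kupffer cell markers were lower at that level in 6 of 11 (Marco at -0.54) and hepatocyte markers in 3 of 7 (Alb at -0.17). By the mean alone, all 11 Kupffer cell markers and 6 of 7 hepatocyte markers were lower. Averaged over its genes, the Kupffer list ran from -0.57 to 0.31 per mouse in GLU+GAL livers, against -0.15 to 0.75 in GLU livers. Glucocorticoid-responsive genes had 0 of 11 at that level, with Per1 at 0.29 ± 0.28, fasting genes 1 of 15 (Plin2 at -0.34 ± 0.15) and NRF2 targets 0 of 9, with Gsta2 at 0.56 ± 0.42. The part of these shifts in the values of the 7 genes was not tested.

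Genes whose log2 ratios were most like those of the metallothioneins are given as a description, from 14622 genes with a matched symbol. The 5 highest for Mt1 were Pip5k1a (0.98, by 1 of its probes only), Mt2 (0.96), Pcbp4 (0.81), Slc2a5 (0.81), a fructose transporter, and Il1rn (0.80), the interleukin-1 receptor antagonist. For Mt2 they were Pip5k1a (0.99, by the same probe), Mt1, Ngef (0.82), Wipf3 (0.81) and Slc8b1 (0.81), a mitochondrial sodium-calcium exchanger. The lowest for both was Tra2a, a splicing factor (-0.83 with Mt1 and -0.87 with Mt2). C1galt1 and Dnajb1, an HSP40 co-chaperone, followed for Mt1 (both -0.79), and Dnajb9, a chaperone of the endoplasmic reticulum, and Creb3l2, a transcription factor anchored in its membrane, for Mt2 (both -0.85). An r beyond 0.5 in either direction was reached by 5.02% of all tested genes with Mt1 and 5.46% with Mt2.

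The Pip5k1a value came from 1 probe, and other probes of this gene did not share it. This probe had a mean Cy5 signal of 20054 and an SD over mice of 1.13, and its sequence lies at chr3:94901128-94901187 in mm9, per the scanner files. The 3 other Pip5k1a probes had mean signals of 435, 64.5 and 40.2 and correlated with Mt1 at -0.12, 0.16 and -0.26. Over all probes, 2 more beyond those of Mt1 and Mt2 exceeded r = 0.9 with both metallothioneins, one named AK042514 (0.96 with Mt1 and 0.93 with Mt2, chr7:139346062-139346121) and one for a long noncoding region on chromosome 11 (0.94 and 0.92, chr11:18368700-18368759). The 3 probes are shown 5′ to 3′ as the scanner files give them, because they share a stretch of 9 bases, in capitals, that a search for shared letters found after their values had been seen.
Pip5k1a probe: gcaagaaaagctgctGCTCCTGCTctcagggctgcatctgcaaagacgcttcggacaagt
AK042514 probe: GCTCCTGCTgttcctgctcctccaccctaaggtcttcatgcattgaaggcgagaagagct
chromosome 11 probe: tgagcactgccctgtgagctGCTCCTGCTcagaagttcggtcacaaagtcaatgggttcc
Of 56605 probes, 28 held this stretch (0.0495%), and 22 of these passed the filter. Their median r with Mt1 was 0.34, beside 0.03 over all probes that passed, and only these 3 exceeded 0.9. The 22 include these 3, which were picked for that r and gave the stretch. The medians are therefore a description and no test of the stretch. The probes used for Mt1 and Mt2 did not hold the stretch. Values of Pip5k1a, AK042514 and the noncoding region are reported as uncertain.

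For the transporters and Mtf1 the most alike gene of each had an r from 0.75 to 0.88. Slc39a14 was closest to P2ry1 (0.88), a purinergic receptor, Pnpla2 (0.83), the triglyceride lipase ATGL, Apbb3 (0.83), Ddx19b (0.83) and Alas1 (0.82), the first enzyme of haem synthesis, and lowest with Ccng2 (-0.87). Slc39a4 was closest to Nup93 (0.84), C1ra (0.84), Atp9a (0.83), Mfhas1 (0.81) and Glul (0.80), the glutamine synthetase of pericentral hepatocytes. Slc30a1 was closest to Eaf2 (0.75), Abhd1 (0.72) and Cebpa (0.71), a hepatocyte transcription factor. Slc30a10 was closest to Palld (0.85), Tmem254c (0.80) and Tuba1c (0.79), and Mtf1 to Usp47 (0.84), Ddx19b (0.80) and Zfp445 (0.80), with Slc39a14 next at 0.79.

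Other probes of the 7 genes did not all repeat the values given. A second Mt1 probe, with a mean signal of 594 beside 144422 for the one used, had an SD of 0.85 and a diet difference of -0.16, but correlated with the first at only 0.29. The probe used lies at chr8:96704165-96704224 and the second at chr8:96703844-96703903 in mm9. The 3 other Mtf1 probes correlated with the one used at 0.64, 0.30 and -0.12, and their diet differences were -0.09, -0.06 and -0.02. The other 5 genes had 1 probe each, so no second probe bears on them.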

How the data were processed

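Per the labels' protocols, every mouse gave a Cy5 sample and a share of the Cy3 pool. The deposited scanner files hold an intensity per spot and channel, and the submitters' processing notes name Agilent Feature Extraction, version 10.7.3.1. The authors' deposited table of 29287 spots holds log2 values that matched the Cy5 channel of their own array in 24 of 24 columns after genes were centred. All its column medians were 8.6, its genes were not centred, and the sources used here do not give its scaling. It served as an alternative.

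Mean signals were corrected by normexp (offset 50), and log2 ratios normalised by loess, giving control spots a weight of 0 (limma 3.58.1, R 4.3.3, data.table version 1.17.8). Outlier spots were left out. Genes needed a Cy5 signal well above background on 6 arrays of 1 diet. Probes were named through RefSeq by accession (32994), symbol (10224) or older symbol (520), and 12867 kept the file's name. The fit was lmFit and eBayes over 24 arrays, GLU+GAL minus GLU, 2-sided. Correlations used 100000 resamples, or all orders for 8 mice or fewer, adjusted over 21 and 35 pairs. Each array is 1 singly housed mouse, per the labels.

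The members and lists were chosen with earlier results of these data known. The text names all members, the 5 most and 3 least like genes of each (fewer for the transporters and Mtf1), and list genes at an unadjusted p under 0.05 or with the 3 largest differences, in part by counts. Same-numbered mice correlated between -0.383 and 0.521, with 8 of 12 over 0.1. Whether the numbers pair mice was not tested, and the main fit did not pair them. Steps were tested on simulated data. Arrays give no counts, so the number of arrays limits precision. Plots were drawn with matplotlib 3.10.9.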

Additional observations from a re-analysis of the deposited data

How the results depend on the processing

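Diet differences of the 7 genes missed the adjusted threshold under every alternative run, and their signs depended on the setting for genes near 0. Leaving out 1 array at a time gave Mt1 differences from -0.17 to 0.14, Mt2 from -0.44 to 0.0578 (above 0 only without GLU+GAL 1) and Mtf1 from -0.0465 to 0.0077 (above 0 only without GLU 7), and the other 4 genes kept their sign. Mt1 was also above 0 with Agilent's processed signals (0.0207), median centring (0.0492), Cy5 alone (0.0213) and the authors' deposited table (0.0708), as were Mtf1 (0.0044 in Cy5 alone, 0.0108 in that table) and Slc39a4 (0.0025 in that table). On slide 3 Mt1 (0.87), Mt2 (1.18), Slc39a14 (0.17), Slc30a1 (0.10) and Mtf1 (0.13) were above 0, and on slide 1 Slc39a4 (0.0906). Genes past the adjusted threshold numbered 0 to 1 when 1 array was left out (1 without GLU 3), and members at an unadjusted p under 0.05 numbered 0 to 1 (Slc30a1 without GLU+GAL 7), 1 on slide 2 and 2 on slide 3. Genes at that level were 378 under median centring, 1241 without the filter, 1268 and 1630 on slides 1 and 2 and 1215 with array weights, against 802. The share of them higher in GLU+GAL livers was 38.3%, but 51.4% with processed signals, 61.5% in the authors' deposited table, and 64.1%, 24.5% and 59.4% on the 3 slides.

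Of the 9 pairs, 5 passed with scaling between arrays, 5 in Cy5 alone, 5 without GLU+GAL 4 and 12 (chosen after seeing the data), 1, 2 and 2 on slides 1, 2 and 3, where 7 or 8 mice limit the test, and 4 to 9 with 1 array left out (4 without GLU 12 or GLU+GAL 3, 5 without GLU 11, GLU+GAL 7 or GLU+GAL 10). Under median centring 10 pairs passed, but all 4 negative pairs among the 9 were lost (r from -0.24 to -0.35). Mt1 with Mt2, both with Slc30a1, and Slc39a14 with Mtf1 passed each time 1 array was left out, whereas Mt2 with Slc30a10 was lost in 16 of 24. Pairs of members and lists past the threshold numbered 12 under median centring, 2 in Cy5 alone, 1 on slide 3 and 0 to 2 with 1 array left out, and the cause was not tested. With the replicate number as a block, 0 genes passed (lowest adjusted p 0.111 in limma), 1122 had an unadjusted p under 0.05 and no member was called. Of the GLU+GAL mice, 4 of 12 correlated best with their own number, and whether the numbers pair mice was not tested.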

Other observations

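Among the listed genes outside the 7, chosen here after their values were seen, 5 had an r under -0.5 with both Mt1 and Mt2, given as descriptions with no test. An r beyond 0.5 in either direction was reached by 5.02% of all tested genes for Mt1 and by 5.46% for Mt2. Slc30a5, a zinc carrier of the early secretory pathway, correlated with Mt1 at r = -0.57 and with Mt2 at -0.63, and Slc39a7, a zinc carrier of the endoplasmic reticulum and Golgi, at -0.51 and -0.55. Cdkn1a, the cell cycle inhibitor p21, correlated at -0.68 and -0.72, Pdk4, a kinase that inhibits pyruvate dehydrogenase, at -0.64 and -0.67, and Sox9, a transcription factor of bile duct cells, at -0.57 and -0.63. None of these 5 genes differed between the diets at an unadjusted p under 0.05, with differences of 0.08 ± 0.07 for Slc30a5, -0.02 ± 0.09 for Slc39a7, -0.12 ± 0.25 for Cdkn1a, -0.20 ± 0.28 for Pdk4 and -0.05 ± 0.08 for Sox9 (SE, GLU+GAL minus GLU, limma). On the positive side, Il1rn (0.80 with Mt1 and 0.77 with Mt2) and Ppargc1a, in the fasting list with Pdk4 (0.51 and 0.60), exceeded 0.5 with both. The other bile duct markers measured had an r with Mt1 and Mt2 of 0.05 and -0.03 (Krt19), 0.09 and 0.15 (Cftr), and -0.46 and -0.49 (Spp1). Mt3 did not follow the other metallothioneins, at -0.25 with Mt1 and -0.29 with Mt2.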
